A study of Mus musculus with 9 samples.

Results

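The genes described here take up long-chain fatty acids and join them to coenzyme A. The list of 9 genes was set by name, with earlier results of these data known. It held the fatty acid transport proteins Slc27a1, Slc27a2, Slc27a3 and Slc27a4, the scavenger receptor Cd36, and the long-chain acyl-CoA synthetases Acsl1, Acsl3, Acsl4 and Acsl5. Of the 19938 genes with an array probeset of their own, 7 were on this list, and each of the 7 had 1 probeset. Acsl3 shares its probeset with Utp14b and was not counted, and Acsl1 has no probeset named for it here and was not analysed here.

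A long-chain fatty acid cannot be burned, stored or built into membranes until it carries coenzyme A. The Slc27 proteins, also called FATPs, and the Acsl enzymes both catalyse this step, which traps the fatty acid inside the cell, while Cd36 binds fatty acids and lipoproteins at the surface and has no such enzyme activity. Several genes of this kind are known targets of the fatty acid sensing PPAR receptors in liver and intestine.

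RNA came from colon scrapings of male C57BL/6J mice, an inbred strain, aged 9 to 11 weeks. The heme groups ate a diet that drew 40% of its energy from fat and held 0.2 µmol of heme, the iron-bearing pigment of red meat, in each gram, and were sampled on days 2, 4, 7 and 14. The control groups ate that fat-rich diet with no heme added and were sampled on the same days and on day 0. All mice, heme and control, had first eaten the control diet for 1 week. RNA of the mice of a diet and day was pooled and hybridised to 1 array, which gave 4 heme pools and 5 control pools, of 4 mice each except for 3 mice in the control pool of day 2. No diet and day has a repeated pool, so every spread and p-value below describes how pools differ from day to day and says nothing of the spread over single mice.

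The labelled tissue was checked against 12 epithelial markers, among them Epcam, Vil1, Cdx2 and Muc2. All 12 passed the filter on dim genes, and their mean lay between 11.83 and 11.86 log2 in the heme pools and between 11.81 and 11.85 in the control pools. Markers of the exocrine pancreas stood apart in both pools of day 2, with means of 9.50 in the heme pool and 8.93 in the control pool, against 5.29 to 5.45 in the later heme pools and 5.37 to 5.40 in the other control pools. The diet difference of each of the 7 genes is therefore also given without both day 2 pools, while the exact tests, same-day differences, pathway lists and nearest profiles are given with them alone. The heme pool of day 14 differed most widely from the controls, with 4045 of 14953 genes called, and its counts are read against that share.

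A transcription start is shown for Slc27a2 and Slc27a4, whose heme pools lay above all control pools, and for Cd36 and Acsl5, whose pools overlapped. The windows are from RefSeq on build GRCm38.p6, 5′ to 3′ on the gene's strand, from 250 bases before the transcription start to 50 bases after it. They lie at chr2:126552774-126553073 on the plus strand for Slc27a2, chr2:29802384-29802683 on the plus strand for Slc27a4, chr5:17835847-17836146 on the minus strand for Cd36 and chr19:55253119-55253418 on the plus strand for Acsl5. The windows of Slc27a2 and Slc27a4 are at the outermost start of the gene. Those of Cd36 and Acsl5 are at a start inside the gene, which spans chr5:17781690-17888959 and chr19:55251861-55296628. Capitals mark the hexamer AGGTCA, the core of the element that PPAR and related nuclear receptors bind, or its complement on the other strand.
Slc27a2: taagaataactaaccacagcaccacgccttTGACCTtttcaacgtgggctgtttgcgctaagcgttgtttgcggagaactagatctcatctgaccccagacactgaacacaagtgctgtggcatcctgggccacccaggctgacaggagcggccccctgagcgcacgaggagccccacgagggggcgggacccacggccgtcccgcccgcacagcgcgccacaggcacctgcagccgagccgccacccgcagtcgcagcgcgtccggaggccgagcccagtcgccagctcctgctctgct
Slc27a4: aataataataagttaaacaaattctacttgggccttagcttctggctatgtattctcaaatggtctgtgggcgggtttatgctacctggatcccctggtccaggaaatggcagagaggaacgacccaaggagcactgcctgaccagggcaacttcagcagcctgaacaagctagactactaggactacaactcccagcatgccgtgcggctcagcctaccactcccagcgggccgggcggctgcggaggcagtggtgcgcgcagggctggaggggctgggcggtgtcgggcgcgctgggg
Cd36: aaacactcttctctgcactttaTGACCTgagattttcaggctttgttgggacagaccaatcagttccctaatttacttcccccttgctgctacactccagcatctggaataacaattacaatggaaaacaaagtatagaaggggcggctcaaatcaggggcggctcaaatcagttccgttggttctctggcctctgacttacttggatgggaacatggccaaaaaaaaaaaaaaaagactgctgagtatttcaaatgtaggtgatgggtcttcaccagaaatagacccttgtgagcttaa
Acsl5: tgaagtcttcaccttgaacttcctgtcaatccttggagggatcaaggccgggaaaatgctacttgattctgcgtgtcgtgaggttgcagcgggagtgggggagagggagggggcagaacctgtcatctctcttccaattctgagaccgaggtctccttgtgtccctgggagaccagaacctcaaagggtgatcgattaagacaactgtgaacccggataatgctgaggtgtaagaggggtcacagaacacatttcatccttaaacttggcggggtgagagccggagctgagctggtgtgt
All 9 listed genes were matched in the table, with 12 windows between them. The hexamer was present in 2 of the 12 windows, that of Slc27a2, from position -220 relative to the start, and that of Cd36, from position -228, both on the opposite strand of the window, and in 16.3% of all 32851 windows. The direct repeat AGGTCANAGGTCA, searched on both strands, was in 0 of the 12 windows and in 0.04% of all. With up to 2 mismatches it was in 1 of the 12, Cd36, and in 3.9% of all. A match of letters describes these windows and is no evidence of binding.

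Slc27a2 was the only gene of the list called between the diets, and it was higher on heme. It encodes FATP2, also known as very long-chain acyl-CoA synthetase, an enzyme of the endoplasmic reticulum and peroxisome as well as a transport protein, best known from liver and kidney. Its level was 7.76, 8.21, 8.64 and 8.49 log2 in the heme pools of days 2, 4, 7 and 14, against 6.58, 6.96, 6.57, 7.07 and 6.95 in the control pools of days 0, 2, 4, 7 and 14. The lowest heme pool lay above the highest control pool. The mean was 8.27 ± 0.38 log2 on heme (SD, n = 4) and 6.83 ± 0.23 on the control diet (SD, n = 5), a 2.73-fold rise (log2 fold change 1.45, SE 0.17, 95% interval 1.06 to 1.83, limma adjusted p = 0.00601). Its p-value ranked 19 among the 14953 genes tested. The rise was 1.65 log2 with both pools of day 2 left out (adjusted p = 0.004). It lost its call with both pools of day 7 left out (1.39 log2, adjusted p = 0.0565) and with both of day 14 left out (1.41 log2, adjusted p = 0.0952), settings in which limma called 0 of all 14953 genes. In a bulk sample, shifts in cell numbers and in RNA per cell cannot be told apart, here and for every gene below.

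Slc27a4 encodes FATP4, the main transport protein of this family in small intestinal enterocytes. It stood at 8.53, 8.60, 8.68 and 8.72 log2 in the heme pools of days 2, 4, 7 and 14, against 8.34, 8.46, 8.36, 8.50 and 8.35 in the control pools of days 0 to 14. The groups did not overlap, although the heme pool of day 2 lay close to the control pool of day 7. The means were 8.63 ± 0.09 (SD, n = 4) and 8.40 ± 0.07 (SD, n = 5), a log2 fold change of 0.24 (95% interval 0.12 to 0.35) that did not pass over all genes tested (limma adjusted p = 0.0874). It passed when the heme pool of day 2 was left out, at 0.27 log2 (adjusted p = 0.0346), and with both pools of day 2 left out it was 0.28 (adjusted p = 0.0655).

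Slc27a1 and Slc27a3 did not pass. Slc27a1 encodes FATP1, best known from muscle and fat, and ran between 7.70 and 7.97 log2 in the heme pools and between 7.73 and 7.88 in the control pools. Its difference was -0.01 log2, with a 95% interval of -0.14 to 0.12, and the pool of the heme diet was the higher of the day on 2 of 4 days. Without both pools of day 2 the difference was 0.0241. Slc27a3 encodes FATP3, a synthetase with little known transport activity, and lay near the filter value of 4.72, at 5.23 to 5.44 log2 on heme and 5.18 to 5.30 on the control diet. The heme pool of day 7 and the control pools of days 2 and 14 hold the same value, 5.2276, a tie that the summary of probes can leave. Its difference was 0.08 log2 (95% interval -0.04 to 0.21, limma adjusted p = 0.446), and 0.10 without both pools of day 2.

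**Figure D1:**
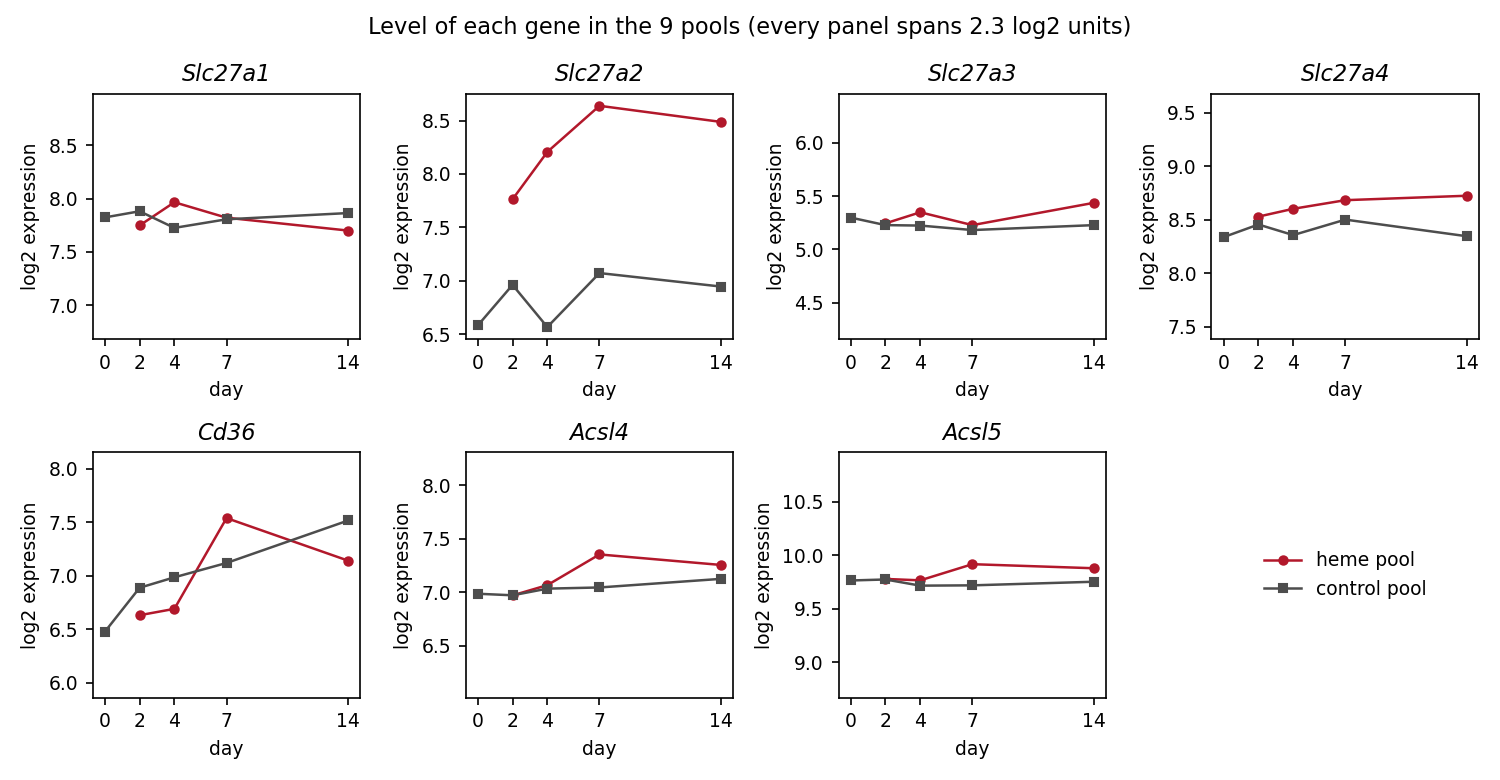
Log2 expression of 7 genes (vertical axis) by day on diet (horizontal axis), 1 point per pool, with heme pools as red circles and control pools as grey squares. Slc27a2 is apart from its controls on every day, at 7.76 to 8.64 against 6.57 to 7.07, and the pools of Cd36 overlap between the diets, at 6.63 to 7.54 against 6.48 to 7.52.

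The long-chain synthetases moved by little. Acsl5, an intestinal enzyme found on mitochondria and endoplasmic reticulum, read 9.78, 9.77, 9.92 and 9.88 log2 in the heme pools of days 2, 4, 7 and 14, against 9.76, 9.77, 9.72, 9.72 and 9.75 in the control pools of days 0 to 14. The early heme pools lay inside or at the edge of the control range and the later ones above it. The difference over all pools was 0.09 log2 (95% interval 0.01 to 0.17, limma adjusted p = 0.275). Acsl4, which prefers arachidonic acid, read 6.97, 7.07, 7.35 and 7.26 on heme, against 6.99, 6.97, 7.03, 7.05 and 7.13 on the control diet. The heme pool of day 2 was level with the lowest control pool, that of day 4 lay inside the control range and the later ones above it, and the difference was 0.13 log2 (95% interval -0.04 to 0.30, limma adjusted p = 0.387). Without both pools of day 2 the differences were 0.12 log2 for Acsl5 and 0.18 for Acsl4, and neither was called (adjusted p = 0.259 and 0.292).

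Cd36 had no detectable difference between the diets and the widest spread of the 7 within each diet. The heme pools of days 2, 4, 7 and 14 read 6.63, 6.69, 7.54 and 7.14 log2, against 6.48, 6.89, 6.99, 7.12 and 7.52 in the control pools of days 0, 2, 4, 7 and 14. The ranges overlapped almost fully. The means were 7.00 ± 0.43 (SD, n = 4) and 7.00 ± 0.38 (SD, n = 5), and the 95% interval of the difference ran from -0.50 to 0.50 log2, which leaves room for a change of either sign. Without both pools of day 2 the difference was 0.10 log2 (limma adjusted p = 0.859).

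**Figure D2:**
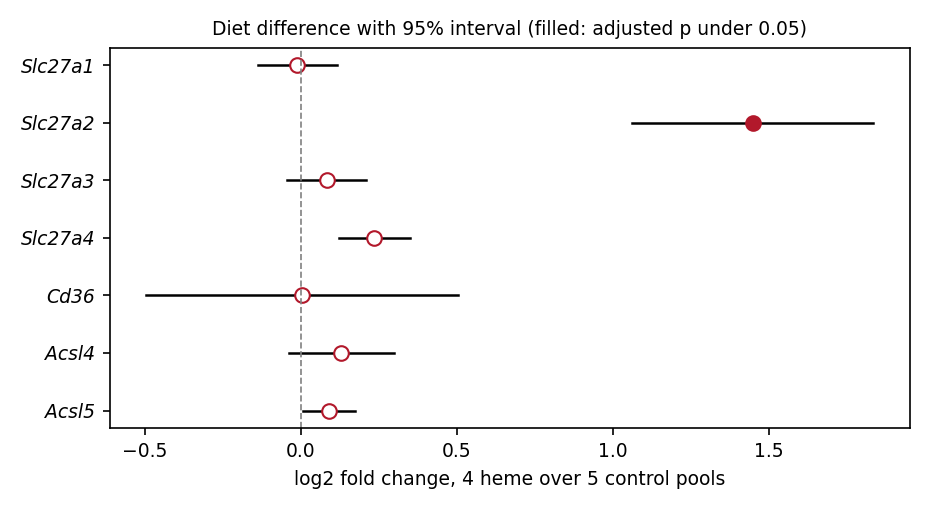
Log2 fold change of the 4 heme pools over the 5 control pools (horizontal axis) for each of the 7 genes, with its 95% interval as a line. The filled point is the gene with an adjusted p under 0.05, Slc27a2 at 1.45, and the interval of Cd36 spans -0.50 to 0.50.

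In all, 1 of the 7 genes was called between the diets, and it was higher on heme, while 0.669% of all genes tested were called and 0.595% were called higher. With the day as a block, so that pools of the same day were compared, the call was again Slc27a2 alone (log2 fold change 1.39, adjusted p = 0.0147), with 0.515% of all genes called. Every heme pool lay above every control pool for 2 of the 7 genes, Slc27a2 and Slc27a4, and for 3.26% of all genes. The median log2 fold change was 0.09 over the 7 and -0.002 over all genes tested. In a two-sided exact permutation of the diet labels over the 9 arrays, Slc27a2 and Slc27a4 each reached p = 0.00794, the smallest possible, and Acsl5 p = 0.0159. For Slc27a2 and Slc27a4 this restates that their groups did not overlap. Exchanging pools only within a day allows 16 arrangements and no p below 0.125, so that test could not pass at 0.05.

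Set against the control pool of the same day, the heme pool was higher on all 4 days for 4 of the 7 genes, as for 10.9% of all genes. These were Slc27a2, Slc27a3, Slc27a4 and Acsl5. The same-day difference of Slc27a2 was 0.80, 1.64, 1.56 and 1.54 log2 on days 2, 4, 7 and 14, so that day 2 was the smallest and the later days lay close together. For Slc27a4 it was 0.07, 0.25, 0.18 and 0.38 log2. For Acsl4 it was -0.0009, 0.03, 0.31 and 0.13, and for Acsl5 0.01, 0.05, 0.20 and 0.13, both largest on day 7. Cd36 differed by -0.26, -0.30, 0.42 and -0.38, with day 7 alone in its sign.

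**Figure D3:**
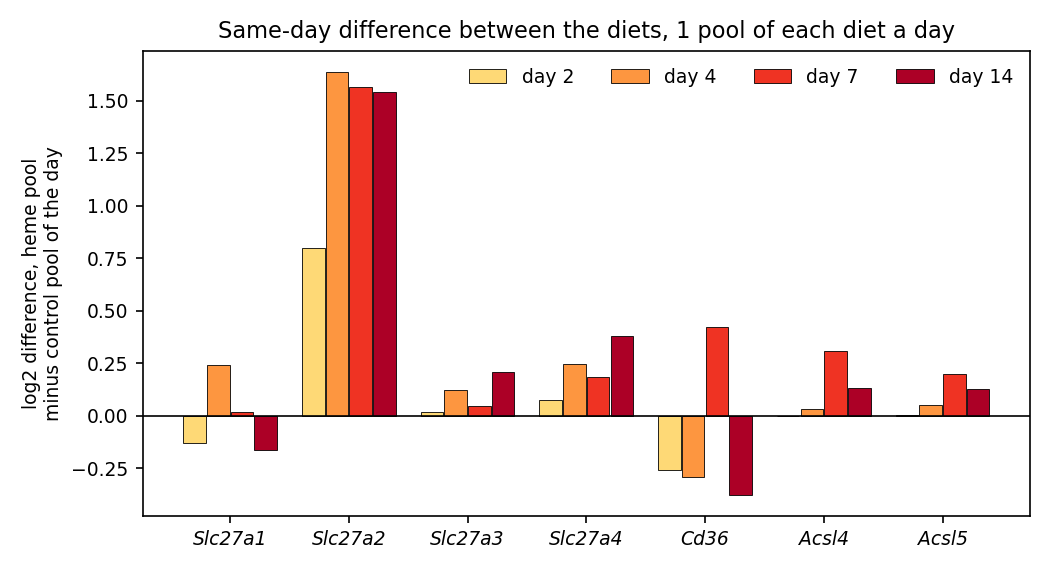
Log2 difference of the heme pool minus the control pool of the same day (vertical axis) for 7 genes (horizontal axis), with 1 bar per day from day 2 at the left to day 14 at the right. Slc27a2 runs from 0.80 on day 2 to 1.64 on day 4, and Cd36 is above 0 on day 7 alone.

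Each heme day was also set against all 5 control pools, which supply the spread, since a heme day has 1 pool. These comparisons share their controls and are not independent of each other. On day 2 none of the 7 was called in limma, as for 0% of all genes. Slc27a2 was 0.94 log2 higher that day (adjusted p = 0.396) and was the one gene of the list past an unadjusted p of 0.05 and higher, as were 4.87% of all genes. On day 4 none of the 7 was called, against 0.00669% of all genes. Slc27a2 was then 1.38 and Slc27a4 0.20 log2 higher (adjusted p = 0.24 and 0.648), both past an unadjusted p of 0.05, as were 4.11% of all genes.

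On day 7 Slc27a2 was called, 3.51-fold higher (log2 fold change 1.81, adjusted p = 0.0254), and 0.883% of all genes were called higher. The call was lost without any one of the 5 control pools, with an adjusted p between 0.0634 and 0.0908, while the log2 fold change stayed between 1.75 and 1.87. Acsl4 and Acsl5 were 0.32 and 0.17 log2 above the control mean that day (adjusted p = 0.0791 and 0.0788). On day 14, 3 of the 7 were called higher, as were 11.3% of all genes. They were Slc27a2 (3.16-fold, adjusted p = 0.00651), Slc27a4 (0.33 log2, adjusted p = 0.024) and Acsl5 (0.13 log2, adjusted p = 0.0402). Acsl5 was no longer called once the control pool of day 0, 4, 7 or 14 was dropped (adjusted p = 0.0524, 0.0543, 0.069 and 0.0638). Without the pool of day 0 or that of day 14, another of the 7 was called in its place. Acsl4 and Slc27a3 stood 0.22 and 0.205 log2 higher and missed the threshold (adjusted p = 0.0553 and 0.0649).

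Whether the diet difference itself grew was tested as days 7 and 14 against days 2 and 4. None of the 7 genes was called in limma, as for 0% of all genes, and 0 of the 7 against 6.62% of all genes fell under an unadjusted p of 0.05. The estimates were 0.33 log2 for Slc27a2 (95% interval -0.23 to 0.89), 0.12 for Slc27a4 (-0.11 to 0.35), 0.30 for Cd36 (-0.23 to 0.82), 0.20 for Acsl4 (-0.04 to 0.44), 0.13 for Acsl5 (-0.0045 to 0.27), 0.06 for Slc27a3 (-0.27 to 0.38) and -0.13 for Slc27a1 (-0.43 to 0.18). With the day as a block the estimates were the same and again none was called.

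Cd36 had the steepest slope with time on the control diet among the 7, though it did not pass the test. Over the 5 control pools its level was ordered as the days are, with 6.48 on day 0 and 7.52 on day 14, and the slope was 0.25 log2 for each unit of log2(day + 1) (SE 0.02, 95% interval 0.19 to 0.31). Its p-value ranked 1 among all 14953 genes tested, yet its adjusted p was 0.677 in limma, and 0% of all genes were called. No slope was tested within the heme pools, where the level was highest on day 7. It was the one gene of the 7 past an unadjusted p of 0.05, as were 7.18% of all genes. The other 6 genes had slopes between -0.02 and 0.09.

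Cd36 is made by fat, endothelium and macrophages as well as by epithelium, and the levels of such cells' markers are set beside it here. Of the 7 endothelial markers all passed the filter, and their mean ran from 5.85 to 6.33 log2 in the heme pools and from 5.95 to 6.59 in the control pools. Their summed level ran from 8.72 to 9.19 log2 on heme and from 8.81 to 9.47 on the control diet. In the control pools of days 0, 2, 4, 7 and 14 the endothelial mean was 5.95, 5.96, 6.35, 6.21 and 6.59, lowest on day 0 and highest on day 14 as for Cd36. The adipocyte mean was also lowest on day 0 and highest on day 14 there, at 5.66 and 6.11. The macrophage and fibroblast means were highest on day 14 too, but lowest on day 2, at 6.06 and 7.46, and the smooth muscle mean was lowest on day 2 and highest on day 7, at 7.16 and 9.53.

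Of the 7 macrophage markers all passed, with means from 5.88 to 6.29 on heme and from 6.06 to 6.49 on the control diet, and summed levels from 9.02 to 9.33 and from 9.20 to 9.49. The 6 fibroblast markers had means from 7.37 to 8.34 on heme and from 7.46 to 8.64 on the control diet, and summed levels from 10.21 to 11.17 and from 10.28 to 11.53. The 7 smooth muscle markers had means from 7.07 to 8.92 on heme and from 7.16 to 9.53 on the control diet, and summed levels from 10.35 to 12.18 and from 10.33 to 12.82. Of 8 adipocyte markers 7 were measured and 6 passed, with means from 6.03 to 6.17 on heme and from 5.66 to 6.11 on the control diet, and summed levels from 9.20 to 9.49 and from 8.74 to 9.27. This list holds the lipid droplet protein Cidec, 0.76 log2 higher on heme (limma adjusted p = 0.0521). The diet differences of Adipoq, Plin1, Retn, Lipe and Fabp4 lay between -0.01 and 0.06 log2. Lep, the fat hormone leptin, fell below the filter, with 3.69 to 4.20 over all pools, while Adipoq, the fat cell hormone adiponectin, read 4.79 to 6.08.

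Across the 9 arrays, each a pool of other mice and read for both measures from the same RNA, the Pearson correlation of Cd36 was 0.857 with the endothelial mean, 0.778 with fibroblast, 0.738 with macrophage, 0.628 with adipocyte, 0.582 with smooth muscle, -0.082 with epithelial, -0.086 with skeletal muscle, -0.382 with exocrine pancreas and -0.633 with small intestinal enterocyte markers. The heme pool of day 7 was the highest of its diet for Cd36 and for the endothelial, fibroblast and smooth muscle means, while the macrophage and adipocyte means were highest in the heme pool of day 14. The part of these cells in the values of Cd36 was not tested.

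**Figure D4:**
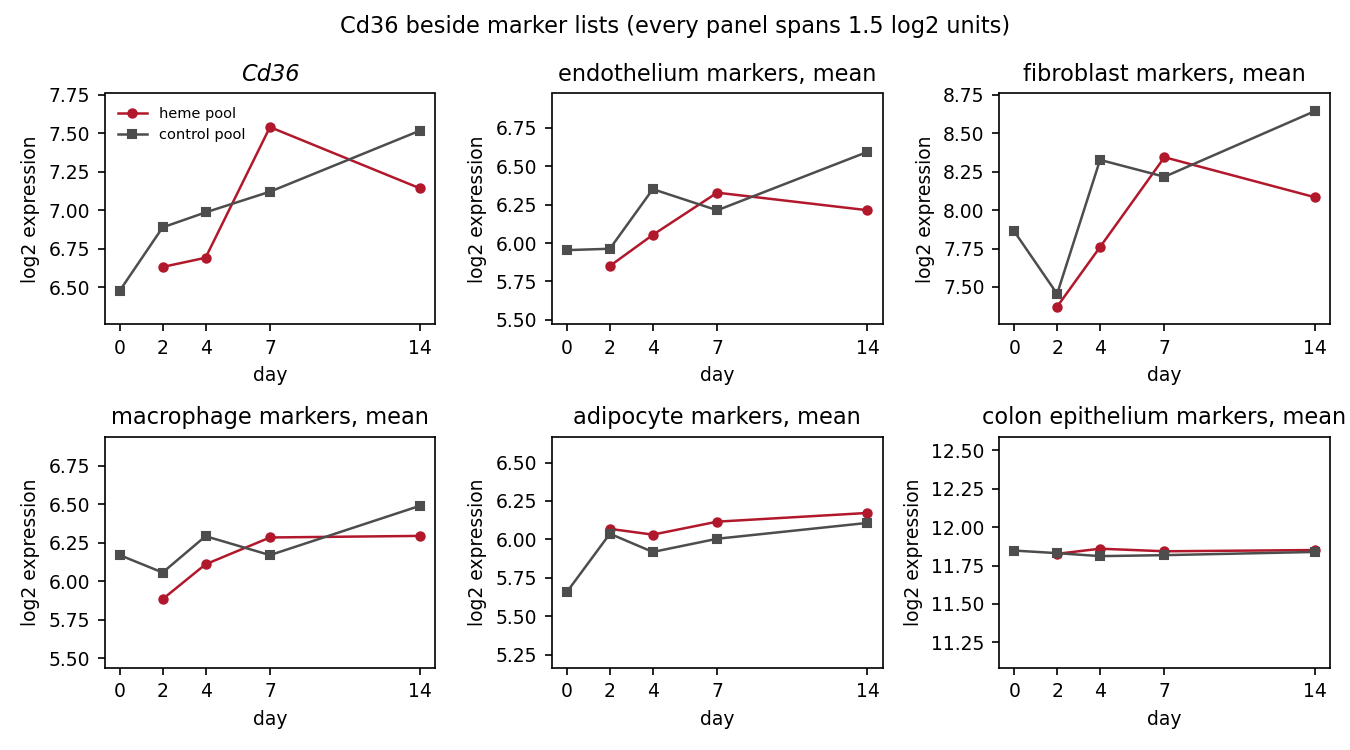
Log2 level of Cd36 and the mean log2 level of 5 marker lists (vertical axes) by day on diet (horizontal axes), 1 point per pool, with heme pools as red circles and control pools as grey squares. In the control pools Cd36 goes from 6.48 on day 0 to 7.52 on day 14 while the endothelial mean goes from 5.95 to 6.59, and the epithelial mean stays between 11.81 and 11.86 in all pools.

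The other genes of the pathway were described from lists chosen with earlier results of these data known, and counted over all genes tested. Of the 16 other acyl-CoA synthetases, which act on fatty acids from acetate to very long chains and include Acsl6 of the same family, 10 were tested and 0 called in the diet comparison (median 0.02 log2, against -0.002 over all genes). Their largest differences were -0.18 for Acsm3, a medium-chain enzyme, and -0.07 for Acss2, which activates acetate (limma adjusted p = 0.196 and 0.39). Acsm3 was the 1 of the 10 under an unadjusted p of 0.05, as were 2547 of all 14953 genes. Of the fatty acid and acyl-CoA carriers and their partners, 15 were tested, 4 rose and 1 fell (median 0.08). Fabp1, the liver-type binding protein, averaged 8.47 ± 1.29 log2 on heme (SD, n = 4) and 4.91 ± 0.34 on the control diet (SD, n = 5), a rise of 3.56 (limma adjusted p = 0.0113). Angptl4, an inhibitor of lipoprotein lipase, rose by 1.03 (adjusted p = 0.00601) and Fabp2, the intestinal-type binding protein, by 0.70 (adjusted p = 0.00715). Fabp6, which carries bile acids, fell by 0.83 (adjusted p = 0.039).

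The carnitine shuttle, which takes the activated fatty acid into mitochondria, had 8 genes tested, of which 4 rose (median 0.32). They were the carnitine transporter Slc22a5 (0.53 log2, adjusted p = 0.0113), the peroxisomal transferase Crot (0.49, adjusted p = 0.00601), the inner-membrane transferase Cpt2 (0.49, adjusted p = 0.00841) and the carrier Slc25a20 (0.42, adjusted p = 0.00837), all in limma. Of 14 genes of glycerolipid synthesis, 2 rose (median 0.16), Lpin2, a phosphatidate phosphatase, by 0.59 and Dgat2, which makes triglyceride, by 0.45 log2 (adjusted p = 0.00601 and 0.0233).

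Of 12 genes of lipid droplets and lipolysis, 2 rose (median 0.14), the monoglyceride lipase Mgll by 0.93 and the droplet coat protein Plin2 by 0.35 log2 (adjusted p = 0.00601 each). With the day as a block 3 of the list were called, as Cidec, a droplet protein, was 0.76 log2 higher without the block (adjusted p = 0.0521) and 0.68 with it (adjusted p = 0.0464). Of 9 genes handling polyunsaturated fatty acids, 1 rose (median -0.07), Lpcat3, which puts them into membrane phospholipids, by 0.54 log2 (adjusted p = 0.0187). Of 12 lipid-sensing receptors and partners, 1 rose (median 0.03), the transcription factor Creb3l3, by 1.35 log2 (adjusted p = 0.00601). With the day as a block Fabp1, Fabp6 and Slc22a5 lost their calls (adjusted p = 0.0525, 0.0929 and 0.0583), at log2 fold changes of 3.55, -0.89 and 0.50. On day 14, when 11.3% of all genes were called higher, 6 of the 15 carriers, 5 of the 8 shuttle genes, 5 of the 14 genes of glycerolipid synthesis and 7 of the 12 lipid droplet genes were. So were 1 of the 10 other synthetases, 2 of the 9 genes handling polyunsaturated fatty acids and 1 of the 12 lipid-sensing receptors, and 2 of each of these 3 lists, with 1 of the carriers, were called lower. Of all genes tested, 27.1% were called that day in either direction.

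Markers of small intestinal enterocytes, which hold much Fabp1, Fabp2 and Creb3l3, had a mean between 6.45 and 6.63 log2 on heme and between 6.37 and 6.58 on the control diet. Of the 7 markers 6 passed the filter, and their summed level ran from 10.36 to 10.49 log2 on heme and from 10.27 to 10.41 on the control diet. Its members differed in sign, with log2 differences of -1.30 for the sucrase Sis, 0.79 for the alkaline phosphatase Alpi and 0.39 for the lipid transfer protein Mttp, none of them called (limma adjusted p = 0.113, 0.111 and 0.171). On day 14, 3 of the 6 were called higher and 2 lower, against 11.3% of all genes called higher and 27.1% called in either direction. The part of these enterocytes in the results above was not tested.

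**Figure D5:**
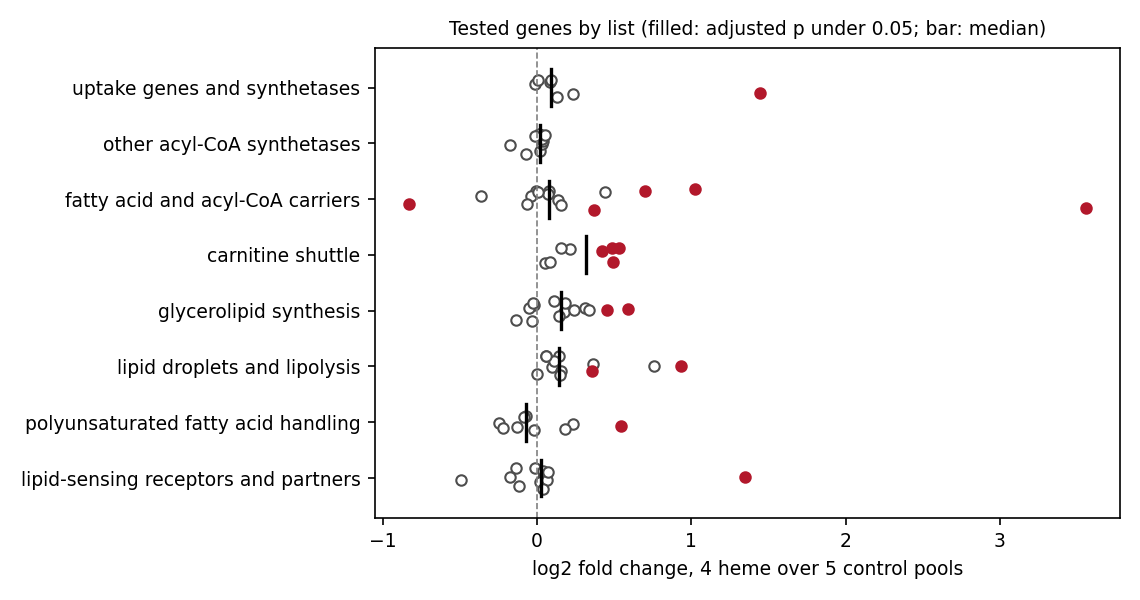
Log2 fold change of the 4 heme pools over the 5 control pools (horizontal axis) for the tested genes of 8 lists, 1 point per gene, filled where the adjusted p is under 0.05, with the list's median as a bar. Slc27a2 at 1.45 stands apart from the rest of its list, and the carnitine shuttle has the highest median, 0.32.

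For each gene the 3 tested genes with the most similar profile over the 9 arrays were found by Pearson correlation, as a description of these arrays. For Slc27a2 they were Ehhadh (0.997), Vnn1 (0.994) and Entpd5 (0.993). With the diet means removed the correlations were 0.972, 0.949 and 0.944. These come from the same arrays that picked the 3 genes, so they are no separate support. For Slc27a4 they were Pgm1, Cmbl and Abhd6 (0.986, 0.975 and 0.974). Each of these 6 neighbours was itself called higher on heme, against 0.595% of all genes tested. As the correlation over the 9 arrays takes in the diet difference, this follows from the choice and is no further result. For Cd36 they were Cnn2, Wnt5a and Calu (0.95, 0.94 and 0.931), for Acsl5 Anln, Cip2a and Kif20a (0.985, 0.977 and 0.977), and for Acsl4 5730507C01Rik, Gsc and Ppia (0.982, 0.968 and 0.938). Among the 7 genes themselves the closest pair over the 9 arrays was Slc27a2 and Slc27a4 (0.955), and with the diet means removed it was Cd36 and Acsl4 (0.867), with Slc27a2 and Slc27a4 at 0.843. Slc27a1 had no correlation above 0 with any of the other 6 over the 9 arrays. Its own nearest profiles were Frat2, Mrps17 and Bcl7b (0.971, 0.936 and 0.923), and those of Slc27a3 were Olfr571, Hcrt and N4bp3 (0.959, 0.949 and 0.946).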

How the data were processed

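RNA of scraped mouse colon was measured on 9 arrays, 1 per pool. The deposited values are log2 expression levels, 1 for each probeset and array, from RMA per the submitters' processing notes. No RMA version was found in the sources used. This method quantile-normalizes the arrays together and summarises probes by median polish, which compresses small differences and can leave equal values in several arrays. Array medians lay between 5.895 and 5.963, and, as arrays have no read depth, precision rests on how many there are.

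Probesets were named through the platform annotation: of 35556, 21789 had 1 gene symbol, 1621 several and 12146 none here, and 21698 matched RefSeq by Entrez ID with 0 symbols changed. Each gene was read from its brightest probeset on average, and the 14953 genes with a mean at or above the 25th percentile (4.716 log2) were tested. All 7 measured members passed.

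Linear models were fitted with limma 3.58.1 (lmFit, eBayes with an intensity trend) in R 4.3.3, and tables and figures made with Python 3.11.15 and matplotlib 3.10.9. The Benjamini-Hochberg adjustment ran over the 14953 genes, with a call at an adjusted p under 0.05. Each heme day was compared with 5 control pools (4 residual degrees of freedom), the lone pool being assumed to vary like them. The fits were tested on simulated data. Members and lists were chosen with earlier results of these data known. The text names all members, the called genes of each list (at most 4, by size), and the 2 largest differences where a list has no call. Pools share a day on diet by their labels, though not animals. Same-day deviations from the diet means correlated with r = 0.651, -0.005, 0.333 and 0.168 on days 2, 4, 7 and 14. Between pools of different days r ran from -0.454 to 0.422. Both pools of day 2 held the raised pancreas markers. The blocked values stand with the results. Alternatives were the filter, variance model, probeset choice, scaling, day block and pools left out.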

Additional observations from a re-analysis of the deposited data

Results flagged for a closer look

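Probeset 10347748 is annotated to both Acsl3 and Utp14b, so it names neither gene and entered no comparison above, but its signal was higher on heme. It read 10.81, 10.75, 10.81 and 10.71 log2 in the heme pools of days 2, 4, 7 and 14, against 10.59, 10.67, 10.60, 10.64 and 10.50 in the control pools of days 0, 2, 4, 7 and 14. Every heme pool lay above every control pool, as for 3.26% of all genes tested. The mean difference was 0.17 log2, from 10.77 ± 0.05 (SD, n = 4) against 10.60 ± 0.07 (SD, n = 5), and it was not tested. Which of the overlapping genes gave the signal was not tested. No single pool of the 7 genes stood apart from its diet by Dixon's gap ratio.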

How the results depend on the processing

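Slc27a2 kept its direction in all 21 alternatives of the diet comparison, with a log2 fold change between 1.33 and 1.65, and its call in 19. The call was lost with both pools of day 7 left out (1.39, adjusted p = 0.0565) or both pools of day 14 (1.41, adjusted p = 0.0952). The count of called genes among the 7, 1 as reported, was 0 under each of those settings, as it was for all 14953 genes (1567 and 1507 at an unadjusted p under 0.05), and between 1 and 2 when single pools were left out. The 2 arose without the heme pool of day 2, which brought in Slc27a4. With the replicate block by day it was 1, and for the late-minus-early comparison 0. On day 7 the count over all genes was 244 in either direction with the reported settings. It was 472 after quantile normalization was run again, and between 8 and 68 without single control pools. The count among the 7 was 2 and 0 in those settings. The cause of these changes was not tested. On day 14 it lay between 2 and 4, and Acsl5 also lost its call there without the intensity trend (adjusted p = 0.0751) or with arrays centred on their medians (adjusted p = 0.169). Counts for days 2 and 4, late minus early and the control slope were 0 throughout. The block changed no other call among the 7. Slc27a1 and Cd36 changed sign around 0. Slc27a1, -0.0114 as reported, was at 0.0192 after quantile normalization again, 0.0241 and 0.0358 without both pools of day 2 or day 14, and between -0.0636 and 0.0248 without single pools. Of these it was 0.0088 without the heme pool of day 2 and 0.0039 without the control pool of day 2. Cd36 was at -0.13 with the block, -0.15 without both pools of day 7, and between -0.18 and 0.13 without single pools, among them -0.0437 without the heme pool of day 14 and -0.0242 without the control pool of day 2. Its control slope stayed between 0.21 and 0.27 without single pools (adjusted p up to 0.916). Slc27a3 was below the stricter filter and has no value there.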
